A study of Homo sapiens with 12 samples.

Results

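The respiratory chain of the inner mitochondrial membrane passes electrons from NADH and succinate to oxygen through complexes I to IV and pumps protons for ATP synthesis. Complex I oxidizes NADH, complex II oxidizes succinate and also serves the citric acid cycle, complex III passes electrons from ubiquinol to cytochrome c, and complex IV reduces oxygen. Most subunits are encoded in the nucleus and a minority in mitochondrial DNA. The genes described here are the nuclear-encoded subunits. They were chosen by name as the protein-coding rows of both count tables whose symbols mark subunits of complex I (NDUFA, NDUFB, NDUFC, NDUFS and NDUFV), complex II (SDHA to SDHD), complex III (UQCR) or complex IV (COX4 to COX8). Among the 23238 genes in both tables, 64 met this rule, 38 in complex I, 4 in complex II, 9 in complex III and 13 in complex IV. NDUFA4 is grouped here with complex I by its symbol, although its product is now placed in complex IV.

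RNA sequencing was performed on 12 libraries of KBM7 and K562, lines established from chronic myelogenous leukemia, at 72 h after transfection. Cells received either a siGENOME SMARTpool of siRNAs against the deubiquitinase USP15 (siUSP15) or a non-targeting siRNA pool (siCtrl). In KBM7 there were 2 libraries for each siRNA and in K562 there were 4. The K562 libraries fell into a pair of sets, replicates 1 and 2 (first set) and replicates 3 and 4 (second set), each with 2 siCtrl and 2 siUSP15 libraries, so siRNA and set were not confounded. The labels name no batch, and the deposited K562 table is named as batch corrected. No label says that replicates were separate cultures, so p-values measure the spread between these libraries, which may be technical.

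Libraries held 23450607 to 29441118 counts in KBM7 and 23020401 to 43566543 in K562, of which the 64 genes took 0.523% to 0.538% in KBM7 and 0.689% to 0.721% in K562. Values are given as normalized CPM, the share of a gene in the scaled library size. USP15 fell to 53.4% of its control level in KBM7 (log2 fold change -0.91, edgeR adjusted p = 1.58e-07), to 45.9% in the first K562 set (-1.12, adjusted p = 1.42e-09) and to 57.7% in the second (-0.79, adjusted p = 1.25e-06). Among erythroid markers, KLF1 lay at 101 to 128 normalized CPM in K562 and at 0.175 to 1.52 in KBM7. TFRC was high in both lines, at 1220 to 1930 in K562 and 739 to 887 in KBM7. Among myeloid markers, SPI1 lay at 94.2 to 121 in KBM7 and 13.8 to 37.6 in K562, whereas LYZ lay at 7.67 to 10.6 and 8.03 to 25.4 and AZU1 at or below 3.47 in both. Of the epithelial markers in K562, EPCAM (83.4 to 95.2) and KRT8 (349 to 587) were present and CDH1 was at or below 0.145. Of the T cell markers, CD3D reached 12.8 in KBM7 and 18 in K562, CD3E at most 1.14 and CD2 at most 0.211.

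Subunit genes of the respiratory chain are known for promoters with sites of nuclear respiratory factor 1 (NRF1) and of ETS family factors. RefSeq promoter sequences were matched by symbol for 53 of the 64 genes, which had 62 start sites; those not in that table included NDUFA4, NDUFA4L2, NDUFB5, NDUFB9, NDUFC2, NDUFS5, SDHC, UQCRB, UQCRHL and COX6C. In the 250 bases before the start, an NRF1 motif (GCGCANGCG, either strand) was found in 15 of 62 windows (24.2%), beside 1885 of 22199 windows of all protein-coding genes (8.49%). An ETS motif (CCGGAAG, either strand) was found in 14 of 62 windows (22.6%), beside 10.7% of all windows. A YY1 motif (AAGATGGC, either strand), which can share its first 3 letters with the end of the ETS motif, was found in 0 of 62 windows and in 1.38% of all. These matches describe the letters only. The sequences of 4 genes that results below turn on are shown 5′ to 3′ on the strand of the gene (build GRCh38.p14), with NRF1 and ETS motifs in capitals. SDHD and NDUFS3 were higher with siUSP15 in KBM7, UQCR11 was lower there, and UQCRC2, whose window holds none of these motifs, was lower in K562.
SDHD (chr11:112086623-112086872, plus strand): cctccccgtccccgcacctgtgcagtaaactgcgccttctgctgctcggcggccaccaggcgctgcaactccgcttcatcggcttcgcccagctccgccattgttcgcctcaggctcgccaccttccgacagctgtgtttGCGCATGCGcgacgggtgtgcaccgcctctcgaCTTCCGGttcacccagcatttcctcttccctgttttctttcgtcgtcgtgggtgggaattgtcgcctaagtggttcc
NDUFS3 (chr11:47578824-47579073, plus strand): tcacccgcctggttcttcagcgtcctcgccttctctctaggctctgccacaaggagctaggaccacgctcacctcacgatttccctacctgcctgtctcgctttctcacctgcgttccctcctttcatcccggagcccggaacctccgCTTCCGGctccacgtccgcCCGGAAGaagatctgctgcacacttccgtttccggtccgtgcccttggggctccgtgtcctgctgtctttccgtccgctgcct
UQCR11 (chr19:1605463-1605712, minus strand): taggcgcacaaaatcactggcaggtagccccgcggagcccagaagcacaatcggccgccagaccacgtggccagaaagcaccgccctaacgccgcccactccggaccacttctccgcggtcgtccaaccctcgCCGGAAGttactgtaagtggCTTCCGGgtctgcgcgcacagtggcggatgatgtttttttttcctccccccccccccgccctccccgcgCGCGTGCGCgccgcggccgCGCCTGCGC
UQCRC2 (chr16:21953111-21953360, plus strand): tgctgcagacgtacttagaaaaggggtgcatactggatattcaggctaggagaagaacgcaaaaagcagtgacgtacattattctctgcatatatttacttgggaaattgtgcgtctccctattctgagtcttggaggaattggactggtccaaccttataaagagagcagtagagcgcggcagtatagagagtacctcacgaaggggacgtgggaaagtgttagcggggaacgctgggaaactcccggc

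In control cells the subunit genes spanned a wide range of levels. Per kb of the annotated transcript, the median gene lay at 68.4 normalized CPM in KBM7 and 80.3 in K562. The length is that of a single canonical transcript per gene, and the order of genes depends on it. By this measure COX4I1, a subunit of complex IV that binds its regulators, led in KBM7 with 305 per kb. Next were NDUFB9 at 304 and NDUFA1 at 292, both accessory subunits of the membrane arm of complex I. Before division by length, UQCRB of complex III measured 287 and 291 normalized CPM in the KBM7 controls, above COX4I1 at 235 and 230. With a transcript of 8459 bases it lay at 34.2 per kb. UQCRH, the hinge protein of complex III, led in K562 with 1070 per kb, above COX4I1 at 398 per kb. UQCRH took values of 133 to 148 normalized CPM over the KBM7 libraries against 541 to 603 over the K562 libraries, so the lines did not overlap. NDUFA5, an accessory subunit of the peripheral arm of complex I, took values of 53.5 to 57.3 across KBM7 libraries against 188 to 265 across K562 libraries. These levels come from tables processed separately and the difference between the lines was not tested.

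A few genes were near the lower limit of detection. COX8C, a form of COX8 known from testis, reached at most 0.0844 normalized CPM in any library and was not tested. COX6B2, also known from testis, was at 0 in 3 of 4 KBM7 libraries and between 0.195 and 1.23 in K562, and was not tested within KBM7. NDUFA4L2, the hypoxia-inducible relative of NDUFA4, lay between 1.61 and 3.92 in KBM7 and between 0.41 and 0.833 in K562. NDUFV2, an iron-sulfur subunit of the catalytic core, lay between 0.91 and 1.06 in KBM7 and between 2.28 and 5.35 in K562, while the row of its pseudogene NDUFV2P1 held 4.41 to 5.17 and 2.1 to 3.04. NDUFV2 also overlaps the antisense gene NDUFV2-AS1, so its value is uncertain. UQCRHL, an intronless near-identical copy of UQCRH, lay between 0.0847 and 3.07, and reads of the 2 genes may not be told apart. NDUFA7, which overlaps other genes, stayed at or below 0.807. In all, 58 genes had a mean of at least 5 normalized CPM in each line, and 29 of the 64 overlap another gene in the tables, which unstranded counting cannot separate.

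Taken as a whole, the expression of the 64 nuclear-encoded genes moved little with siUSP15. The mitochondrially encoded subunits are given further below. Summed over the 64 genes, siCtrl libraries of KBM7 held 5272 and 5455 normalized CPM and siUSP15 libraries 5287 and 5332, so the groups overlapped. In the first K562 set the sum was 6986 and 7064 with siCtrl and 6893 and 6916 with siUSP15, or 98.3% of the control mean. In the second K562 set it was 7315 and 7359 with siCtrl and 6964 and 7195 with siUSP15, or 96.5%. Within each K562 set the siUSP15 libraries lay below the siCtrl libraries, by less than the difference between the control libraries of the 2 sets. Without NDUFB5 the sums were 98.8% and 96.7% of control. Normalized CPM are shares of a library, so these sums do not measure the number of cells or the total RNA per cell.

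The median log2 fold change of the genes tested was -0.01 in KBM7 (62 genes), -0.03 in the first K562 set and -0.05 in the second (63 genes each), beside 0.00, -0.01 and -0.00 over all genes tested. The changes were also small in size. The median absolute log2 fold change was 0.084 in KBM7, 0.055 in the first K562 set and 0.054 in the second, beside 0.161, 0.165 and 0.085 over all genes. The 95% confidence interval of the change lay within 1.2-fold in either direction for 46 of 62 genes in KBM7 (74.2%), for 51 of 63 in the first K562 set (81%) and for 54 of 63 in the second (85.7%). Over all genes tested these shares were 33.5%, 34.9% and 50.8%. All of the genes that met this limit were among the 58 with at least 5 normalized CPM in each line.

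By complex, the medians in KBM7 were -0.03 for complex I, 0.06 for complex II, -0.04 for complex III and -0.00 for complex IV. In the first K562 set they were -0.04, -0.01, 0.02 and -0.04, and in the second -0.05, 0.00, -0.07 and -0.04. Complex II had the narrowest range in K562. Its 4 genes, the flavoprotein SDHA, the iron-sulfur subunit SDHB and the membrane anchors SDHC and SDHD, lay between -0.11 and 0.03 in the first set and between -0.05 and 0.04 in the second, and all 4 had intervals within 1.2-fold in both sets. Among core genes of complexes I and III and the widely expressed complex IV subunits COX4I1, COX5A and COX5B, values in KBM7, the first and the second K562 set were 0.08, -0.04 and -0.09 for NDUFV1, which binds NADH. They were -0.11, -0.04 and 0.05 for NDUFS7 and -0.04, 0.05 and -0.06 for NDUFS8, both on the path of electrons through the peripheral arm. They were -0.12, -0.08 and -0.05 for NDUFS1, the largest iron-sulfur subunit of complex I. The Rieske protein UQCRFS1 of complex III had -0.04, -0.04 and -0.09 and its core protein UQCRC1 -0.06, 0.05 and 0.02. For complex IV, COX4I1 had 0.04, 0.03 and 0.02, COX5A 0.02, -0.01 and -0.10, and COX5B -0.10, 0.03 and -0.03. Values of these 9 genes did not pass the test; the core genes NDUFS3, NDUFV2 and UQCRC2, which were called in KBM7 or in the first K562 set, are described below. The tested genes of complex IV lay between -0.12 and 0.22 in KBM7.

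**Figure D1:**
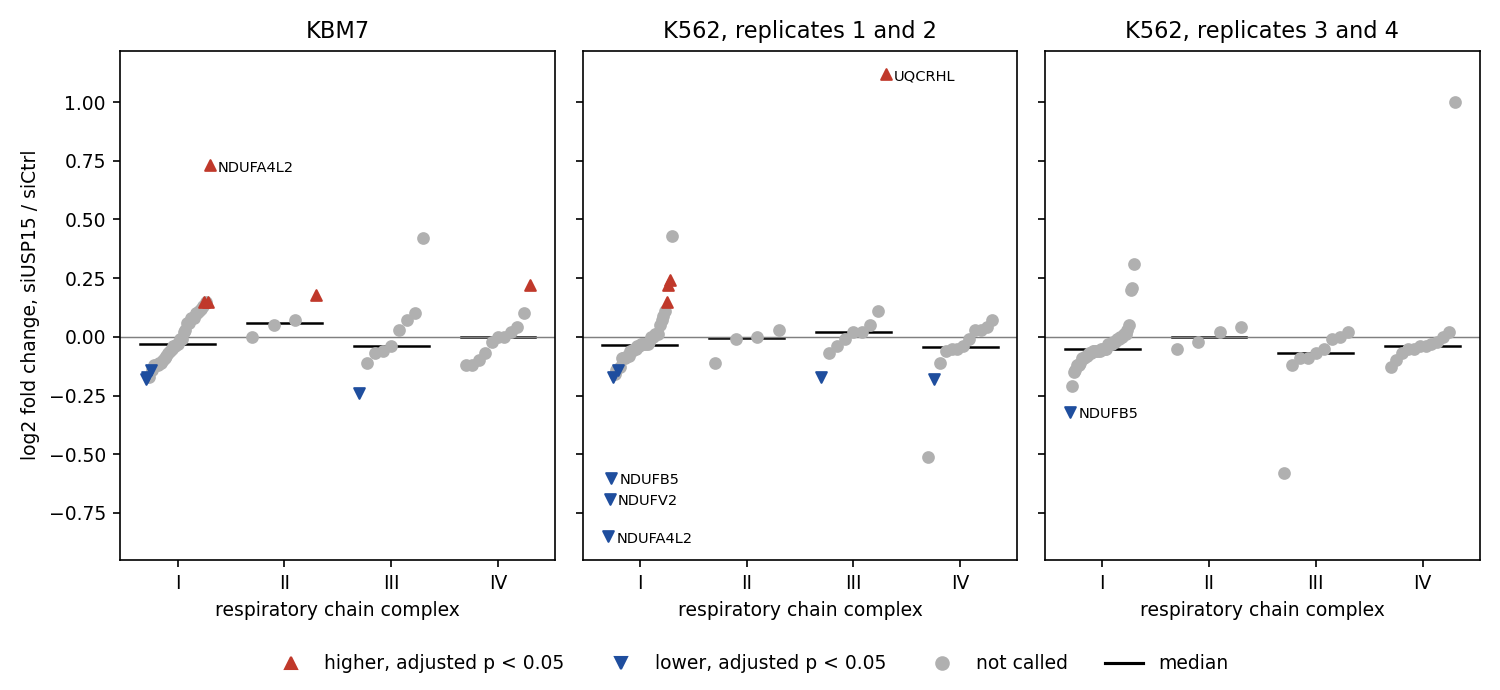
log2 fold change of siUSP15 over siCtrl (y axis) for each tested gene, grouped by complex (x axis), in KBM7, the first K562 set (replicates 1 and 2) and the second (replicates 3 and 4); triangles mark genes past an adjusted p of 0.05 and black lines the medians. Most points lie near 0, NDUFB5 is called lower in all 3 panels, at -0.17 in KBM7 without a label, and the widest values belong to genes of low level.

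NDUFB5, an accessory subunit of the membrane arm of complex I, fell with siUSP15 in both K562 sets and in KBM7. The gene lies at chr3:179604690-179627647 (hg38, plus strand). In the first K562 set it measured 102 and 101 normalized CPM with siCtrl and 66.5 and 67.2 with siUSP15. In the second set it measured 95.5 and 95.2 with siCtrl and 76.2 and 76.1 with siUSP15. In KBM7 it measured 65.6 and 64.4 with siCtrl and 58.4 and 57.5 with siUSP15. In K562 all 4 siUSP15 libraries lay below all 4 siCtrl libraries, which was so for 4.51% of all 13731 genes tested. The log2 fold change was -0.60 (SE 0.0406, edgeR adjusted p = 5.24e-08) in the first set and -0.32 (SE 0.0408, adjusted p = 0.000728) in the second. In KBM7 it was -0.17 (SE 0.0494, adjusted p = 0.0264). The KBM7 call was lost by DESeq2 (-0.16, adjusted p = 0.143), without a filter on low counts (adjusted p = 0.0534), and without siCtrl replicate 1 or without siCtrl replicate 2, whereas the call in each K562 set held under all 14 alternatives computed.

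The size of the fall in NDUFB5 differed between comparisons. It was larger in the first K562 set than in the second by 0.28 on the log2 scale (difference -0.28, SE 0.0575, edgeR adjusted p = 0.00709), a call lost without siCtrl replicate 1. KBM7 minus the mean of the K562 sets gave 0.30 (SE 0.0575, adjusted p = 0.000394), a smaller fall in KBM7. Side by side, USP15 was left at 45.9% and NDUFB5 at 65.9% in the first K562 set, at 57.7% and 79.9% in the second, and at 53.4% and 89.2% in KBM7. No relation was tested over these 3 comparisons.

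NDUFB5 starts 36 bases from MRPL47, a gene of the mitochondrial ribosome transcribed the other way. MRPL47 measured 86.9 and 87.4 normalized CPM with siCtrl and 88.6 and 86.7 with siUSP15 in the first K562 set, so the groups overlapped. Its log2 fold change there was 0.01 (SE 0.042, edgeR adjusted p = 0.917). In the second set it was -0.07 (SE 0.0416, adjusted p = 0.379) and in KBM7 -0.09 (SE 0.0539, adjusted p = 0.251). MRPL47 did not pass the test in these comparisons, and the difference between the 2 genes was not tested. In KBM7 the estimates, -0.17 (SE 0.0494) for NDUFB5 and -0.09 (SE 0.0539) for MRPL47, lay close together for their SE. MRPL47 was chosen after its values were seen. Such head-to-head neighbours, with starts within 1000 bases, were found for 12 of the 64 genes (18.8%) beside 7.91% of 16891 protein-coding genes. Pairs that overlap at their starts were not counted in either share. Another is MRPL36 next to NDUFS6, an accessory subunit of complex I: in the first K562 set MRPL36 rose by 0.58 (adjusted p = 6.05e-06) while NDUFS6 was at -0.05 (adjusted p = 0.362).

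**Figure D2:**
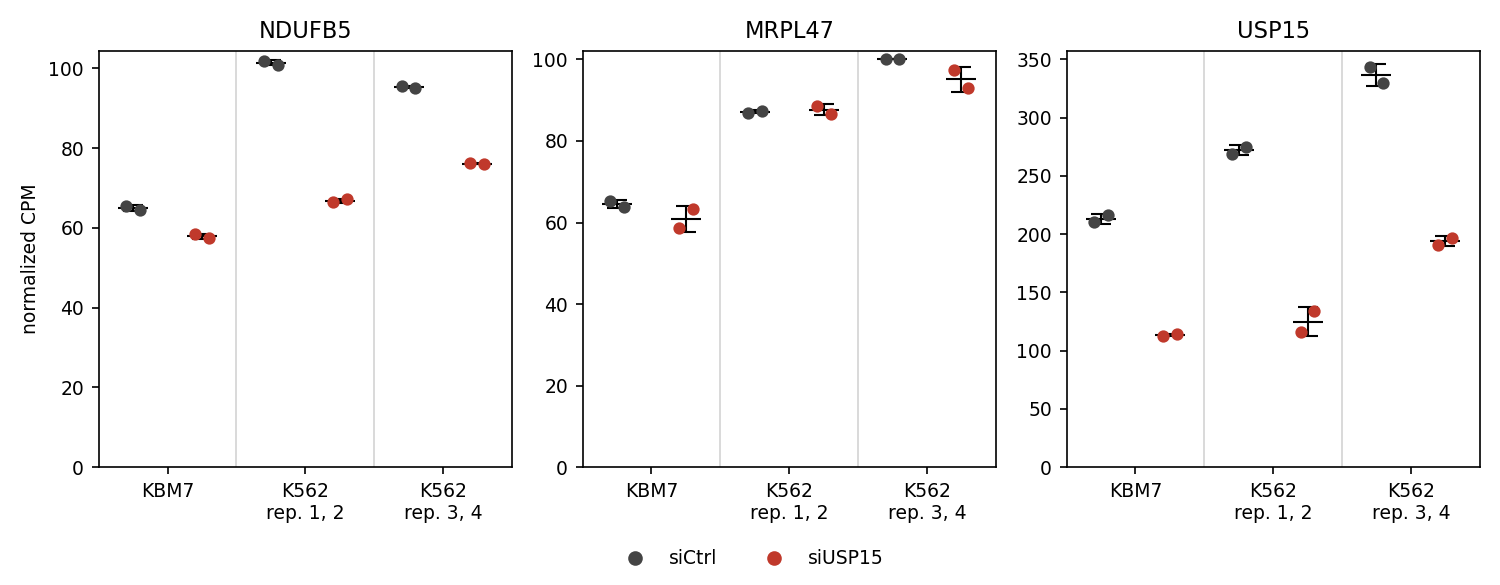
Normalized CPM of NDUFB5, its head-to-head neighbour MRPL47 and USP15 in each library, with KBM7 and the K562 sets along the x axis and siCtrl in grey and siUSP15 in red; horizontal bars and whiskers are means ± SD of 2 libraries and the y axes start at 0. NDUFB5 falls from 101 to 66.8 in the first K562 set while MRPL47 has 0.01 on the log2 scale.

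In KBM7, 9 of 62 genes passed an adjusted p of 0.05, 5 higher (8 at an unadjusted p under 0.05) and 4 lower (11). Among all 14980 genes tested, 13.2% were called higher and 15.8% lower, beside 8.06% and 6.45% of the subunit genes. The count moved with single libraries, as did the share of all genes called, 29% in either direction in the full fit. It was 1 gene without siCtrl replicate 1 (14.4% of all genes), 2 without siCtrl replicate 2 (17%) and 16 without siUSP15 replicate 2 (32.9%), and DESeq2 called 2 (17.1%).

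The genes called higher in KBM7 came from 3 complexes. COX7A2L, which joins complexes III and IV into supercomplexes, measured 65.5 and 58.7 normalized CPM with siCtrl and 72.3 and 72.9 with siUSP15 (log2 fold change 0.22, SE 0.0574, edgeR adjusted p = 0.0128). This call was kept by DESeq2 and lost without siCtrl replicate 2. SDHD, the smaller membrane anchor of complex II, measured 69.2 and 68.1 with siCtrl and 78 and 77.6 with siUSP15 (0.18, SE 0.0468, adjusted p = 0.0132). NDUFS3, a core subunit of the peripheral arm of complex I, measured 89.5 and 92 with siCtrl and 100 and 101 with siUSP15 (0.15, SE 0.0451, adjusted p = 0.0289). SDHD and NDUFS3 lost the call by DESeq2 (adjusted p = 0.0726 and 0.125), and without siCtrl replicate 1 or without siCtrl replicate 2. NDUFA10, an accessory subunit of complex I, changed by 0.15 (adjusted p = 0.0309), and DESeq2 did not call it (adjusted p = 0.107). NDUFA4L2 changed by 0.73 (SE 0.248, adjusted p = 0.0459), from 2.24 and 1.61 to 3.92 and 2.45 normalized CPM, and DESeq2 did not call it (adjusted p = 0.157). SDHD overlaps TIMM8B, NDUFS3 overlaps CELF1, KBTBD4 and PTPMT1 among others, and NDUFA4L2 overlaps SHMT2.

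The genes called lower in KBM7 were NDUFB5, UQCR11, NDUFB9 and NDUFA1. UQCR11, the smallest subunit of complex III, measured 40.2 and 38.5 with siCtrl and 33.2 and 33.5 with siUSP15 (log2 fold change -0.24, SE 0.0607, edgeR adjusted p = 0.0112). It was not called by DESeq2 (adjusted p = 0.0664) or without siCtrl replicate 1. NDUFB9 measured 212 and 207 with siCtrl and 184 and 188 with siUSP15 (-0.18, SE 0.0428, adjusted p = 0.00899), a call kept by DESeq2 and lost without siCtrl replicate 1. NDUFB9 overlaps MTSS1 and TATDN1 in the tables. NDUFA1, on the X chromosome, changed by -0.14 (adjusted p = 0.0328), overlaps RNF113A, and lost the call by DESeq2 (adjusted p = 0.125) and without a filter on low counts (adjusted p = 0.0518).

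In the first K562 set, 11 of 63 genes were called, 4 higher and 7 lower, which is 6.35% and 11.1%, where 18% of all 13731 genes tested were called higher and 18.7% lower. Without siCtrl replicate 1 the count was 6 (21.8% of all genes in either direction, against 36.7% in the full fit) and without siCtrl replicate 2 it was 3 (24.5%). NDUFB3 and NDUFB10, accessory subunits of the membrane arm of complex I, rose and kept the call under all 14 alternatives. NDUFB3, which overlaps FAM126B, measured 45 and 45.4 normalized CPM with siCtrl and 52.9 and 54 with siUSP15 (log2 fold change 0.24, SE 0.0467, edgeR adjusted p = 0.000792). NDUFB10 measured 75.3 and 76.8 with siCtrl and 87.9 and 88.8 with siUSP15 (0.22, SE 0.0429, adjusted p = 0.00102). NDUFA12, an accessory subunit of the peripheral arm, rose by 0.15 (adjusted p = 0.0281), a call that DESeq2 did not make (adjusted p = 0.0661). UQCRHL was called higher by 1.12 (SE 0.319, adjusted p = 0.0116), on 1.23 and 0.583 normalized CPM with siCtrl and 2.06 and 1.92 with siUSP15, a call lost without siCtrl replicate 2.

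Besides NDUFB5, the genes called lower in the first K562 set came from complexes I, III and IV. UQCRC2, a core protein of complex III, measured 299 and 310 with siCtrl and 272 and 270 with siUSP15 (log2 fold change -0.17, SE 0.0404, edgeR adjusted p = 0.00398). It lost the call without siCtrl replicate 2. COX8A, a small subunit of complex IV, measured 128 and 135 with siCtrl and 111 and 121 with siUSP15 (-0.18, SE 0.0459, adjusted p = 0.00634), and lost the call without siCtrl replicate 2 or without siUSP15 replicate 1. NDUFB4 changed by -0.17 (adjusted p = 0.0209), with DESeq2 at an adjusted p of 0.0871, and NDUFA5 by -0.14 (adjusted p = 0.0151). Without a filter on low counts edgeR called neither NDUFB4 (adjusted p = 0.117) nor NDUFA5 (adjusted p = 0.15). The low genes NDUFV2 and NDUFA4L2 changed by -0.69 (SE 0.206, adjusted p = 0.0152) and -0.85 (SE 0.313, adjusted p = 0.0438). With the replicate number as a block, NDUFA4L2 was no longer called (adjusted p = 0.0584), and NDUFB9 (0.11, adjusted p = 0.0292) and SDHD (-0.11, adjusted p = 0.0465) were.

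**Figure D3:**
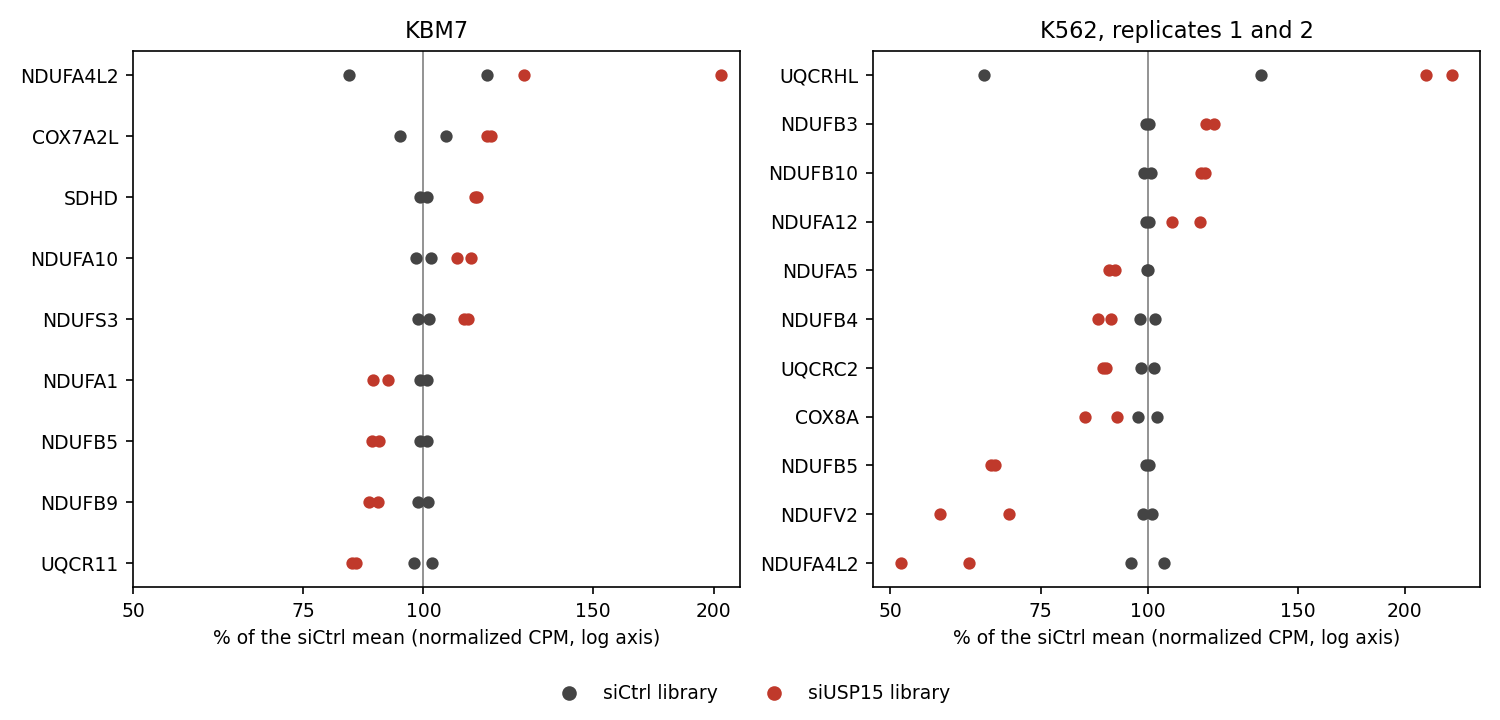
Normalized CPM of each library as a percentage of the siCtrl mean (x axis, log scale) for the genes called in KBM7 (left, 9 genes) and in the first K562 set (right, 11 genes); grey points are siCtrl and red points siUSP15 libraries. NDUFB5 stands at 89.2% of control on average in KBM7 and at 65.9% in the first K562 set, and the genes with widely spread points, NDUFA4L2, NDUFV2 and UQCRHL, are those of low level.

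In the second K562 set, NDUFB5 was the one gene called among 63, 0 higher and 1 lower, where 1.19% of all genes were called higher and 1.25% lower. At an unadjusted p under 0.05, 0 genes were higher and 9 lower by edgeR. The share of all genes at an unadjusted p was not computed in any comparison. At that p, cytosolic ribosomal protein genes had 0 higher and 13 lower, and regulators of mitochondrial gene expression 0 and 0. For the subunit genes, DESeq2 and limma-voom also called 0 higher and 1 lower. With the replicate number as a block, which called 4.6% of all genes in either direction, 3 genes were lower, NDUFB5 (-0.32, adjusted p = 0.000367), NDUFA5 (-0.14, adjusted p = 0.0284) and UQCRC2 (-0.12, adjusted p = 0.0473).

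Over all 8 K562 libraries with the set as a term, which uses the libraries of both sets again, 0 of 63 genes were called higher and 3 lower, where 6.88% of all genes were called higher and 8.9% lower. By edgeR 0 genes were higher and 10 lower at an unadjusted p under 0.05, for which the share of all genes was not computed. Cytosolic ribosomal protein genes had 1 higher and 11 lower at that p, and mitochondrial ribosomal protein genes 11 and 6. ATP synthase genes had 0 and 2, citric acid cycle genes 0 and 4, and assembly factors of complexes I to IV 4 and 6. Regulators of mitochondrial gene expression had 6 and 0, as did the mitochondrially encoded subunits. For the subunit genes, DESeq2 and limma-voom called 0 higher and 3 lower. The 3 were NDUFB5 (log2 fold change -0.46, SE 0.0514, edgeR adjusted p = 0.00104), NDUFA5 (-0.14, SE 0.0322, adjusted p = 0.0156) and UQCRC2 (-0.15, SE 0.0335, adjusted p = 0.0155). NDUFA5 was not called without a filter on low counts (edgeR adjusted p = 0.0505) or without siCtrl replicate 1. NDUFA5 measured 208 and 209 with siCtrl and 188 and 191 with siUSP15 in the first set, and 265 and 248 with siCtrl and 233 and 231 with siUSP15 in the second. Its control level thus differed between the sets by more than the change within each. UQCRC2 measured 303 and 291 with siCtrl and 281 and 265 with siUSP15 in the second set. Without siCtrl replicate 2 or without siUSP15 replicate 1 the count was 1, where 3.99% and 5.87% of all genes were called in either direction, against 15.8% in the full fit. With no term for the set the fit called 0 of all 13731 genes, with NDUFB5 at the same log2 fold change of -0.46 (adjusted p = 0.183). In 6 genes all 4 siUSP15 libraries lay below all 4 siCtrl libraries (NDUFB5, UQCRC2, NDUFA3, NDUFA4L2, COX7A2 and COX8A) and in 0 above. These 6 are 9.52% of the genes tested, where 4.51% of all genes lay below and 3.86% above.

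The response differed between the K562 sets for 6 of 63 genes, 4 in the direction of a higher value in the first set and 2 in that of a lower one, or 6.35% and 3.17%, where the difference was called for 6.91% and 6.08% of all genes. NDUFB3 differed by 0.30 (SE 0.0664, edgeR adjusted p = 0.0101), being at 0.24 in the first set and -0.05 in the second. NDUFB10 differed by 0.25 (SE 0.0602, adjusted p = 0.016), and NDUFA12 by 0.23 (SE 0.0697, adjusted p = 0.0434). UQCRHL differed by 1.70 and NDUFV2 by -1.01, on K562 values of 0.583 to 3.07 and 2.28 to 5.35 normalized CPM. DESeq2 gave no adjusted p for either, and these calls were lost in 4 and 5 of 12 alternatives computed. Beside NDUFB5 the genes named here were all of the genes called. The count was 1 without siCtrl replicate 1 (3.12% of all genes in either direction, against 13% in the full fit), and 3 without siCtrl replicate 2, siCtrl replicate 3, siCtrl replicate 4 or siUSP15 replicate 4 (6.51%, 4.07%, 7.91% and 5.72%).

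KBM7 and K562 differed in their response for 11 of 63 genes, 9 with a higher value in KBM7 and 2 with a lower one, or 14.3% and 3.17%, where the difference was called for 10.6% and 12.6% of all 15833 genes. COX7A2L differed by 0.31 (SE 0.065, edgeR adjusted p = 0.00108), at 0.22 in KBM7 and -0.08 over K562. UQCRC2 differed by 0.25 (SE 0.0545, adjusted p = 0.00147), at 0.10 (adjusted p = 0.103) in KBM7 and -0.15 over K562. SDHD differed by 0.26 (SE 0.0659, adjusted p = 0.00449) and NDUFS3 by 0.23 (SE 0.0578, adjusted p = 0.00504), with K562 values of -0.08 for each. COX7A2L, UQCRC2 and NDUFB5 kept this call under all 17 alternatives computed. The 2 genes with a lower value in KBM7 were UQCR11, with -0.24 (SE 0.0737, adjusted p = 0.0194) and 0.00 over K562, and NDUFB9, with -0.20 (SE 0.0552, adjusted p = 0.0105) and 0.02 over K562. Both lost the call without KBM7 siCtrl replicate 1 and without KBM7 siUSP15 replicate 1, and UQCR11 also by DESeq2 (adjusted p = 0.0576). NDUFS4 and NDUFV3, subunits of complex I, differed by 0.23 and 0.21, which DESeq2 did not call (adjusted p = 0.108 and 0.0531). NDUFA4L2, of low level, differed by 1.26, and DESeq2 gave no adjusted p for it. NDUFS4 overlaps AC024569.1. Without KBM7 siCtrl replicate 1 or without KBM7 siCtrl replicate 2 the count was 7 (17.1% and 16.2% of all genes in either direction, against 23.2% in the full fit).

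Other genes of oxidative phosphorylation are given beside the shares of all genes called, 18% higher and 18.7% lower in the first K562 set and 13.2% and 15.8% in KBM7. Of the 13 mitochondrially encoded subunits, 8 (61.5%) were higher and 0 lower in the first K562 set (9 and 0 at an unadjusted p under 0.05, and 7 and 0 by DESeq2), with a median log2 fold change of 0.21. MT-ND1, a core subunit of complex I, rose by 0.57 (edgeR adjusted p = 1.65e-06). Summed, these genes went from 42303 and 43587 to 45734 and 49088 normalized CPM. In the second set the median was -0.00 and 1 gene (7.69%) was higher (MT-ND6, 0.45, edgeR adjusted p = 0.0253), where 1.19% of all genes were called higher. DESeq2 called 0 of these genes in that set. Their sum there was 29703 and 30040 with siCtrl and 29558 and 30080 with siUSP15. In KBM7 the median was -0.06 and 0 genes were called by edgeR or DESeq2, with 0 at an unadjusted p under 0.05. The sum there varied widely between libraries, at 18019 and 23283 with siCtrl and 22040 and 18296 with siUSP15. Intervals lay within 1.2-fold for 2 of 13 genes (15.4%), so changes in KBM7 were poorly resolved. The part of the mitochondrially encoded subunits in the nuclear-encoded values was not tested.

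Of 19 ATP synthase genes, 3 (15.8%) were higher in the first K562 set, near the share of all genes, and 0 lower (2 at an unadjusted p under 0.05, and 0 by DESeq2), led by ATP5J2 (0.13, adjusted p = 0.0162), and 1 was higher and 1 lower in KBM7, ATP5I (0.26, adjusted p = 0.00972) and ATP5E (-0.16, adjusted p = 0.0207). Mitochondrial ribosomal protein genes had 20 higher (25.6%) and 2 lower (2.56%) of 78 in the first K562 set, and 5 higher (6.49%) and 9 lower (11.7%) of 77 in KBM7. Assembly factors of complexes I to IV had 6 higher (14%) and 5 lower (11.6%) of 43 in the first set, both below the shares of all genes, led by COA7 (0.29, adjusted p = 0.000361) and COA1 (-0.20, adjusted p = 0.00318). In KBM7 they had 5 higher (11.6%) and 1 lower (2.33%), led by COX15 (0.22, adjusted p = 0.0113), which makes heme A, and COX18 (-0.22, adjusted p = 0.0287). Regulators of mitochondrial gene expression had 9 higher (47.4%) and 1 lower (5.26%) of 19 in the first set, led by LRPPRC (0.26, adjusted p = 3.05e-05), which stabilizes mitochondrial mRNA. In KBM7 they had 0 higher (3 at an unadjusted p under 0.05, and 0 by DESeq2) and 5 lower (26.3%), led by MYC (-0.23, adjusted p = 0.00194). Citric acid cycle enzymes had 1 higher (7.14%) and 2 lower (14.3%) of 14 in the first set, where IDH2 fell by 0.58 (log2 fold change -0.58, adjusted p = 4.91e-05). In the second set edgeR called 0 genes of the ATP synthase, mitochondrial ribosome, assembly factor, regulator and citric acid cycle lists, as did DESeq2, with 0, 1, 3, 0 and 0 higher and 4, 11, 6, 0 and 3 lower at an unadjusted p under 0.05. CYCS, the gene of cytochrome c, and CYC1, of cytochrome c1 in complex III, had 0 calls by edgeR and DESeq2 in KBM7 and in either K562 set, with 1 lower at an unadjusted p under 0.05 in the second set.

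The small size of the changes was also measured in other groups of strongly expressed genes. The median absolute log2 fold change of the cytosolic ribosomal protein genes was 0.055 in KBM7, 0.054 in the first K562 set and 0.046 in the second. For the ATP synthase genes it was 0.057, 0.048 and 0.052. Protein-coding genes with transcripts under 1 kb, the size of many subunit genes, had medians of 0.00, 0.01 and -0.03, with absolute medians of 0.134, 0.135 and 0.071.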

How the data were processed

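RNA was measured in 12 libraries of the KBM7 and K562 cell lines, prepared with TruSeq kits. Per the labels, reads were aligned with TopHat2 2.1.0 to hg38 and genes counted with HTSeq; the methods of the study name the Ensembl 77 annotation and Itreecount as counter. Raw counts per gene, as deposited, were the values used here. Their log2 CPM, fold change, adjusted p and mean expression columns, made by the authors, were not used. Strandedness of the counting is not given in the sources used here.

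Genes were selected by filterByExpr and libraries scaled by TMM. siUSP15 was compared with siCtrl by edgeR 4.0.16 quasi-likelihood tests (R 4.3.3) with Benjamini-Hochberg adjustment over all genes tested, two-sided, threshold 0.05. KBM7 was fitted alone and K562 with its sets as a term; each set, the difference between sets and the difference between lines were contrasts of joint fits. SE and 95% intervals come from the quasi-likelihood fit. DESeq2 1.42.0, limma 3.58.1 (voom), other scaling, no filter, a replicate block, a threshold of 0.01 and leaving out each library were alternatives. Scripts were tested on simulated data.

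Replicate numbers correlated in K562 (deviations from siRNA means 0.856, 0.679, 0.834 and 0.775), driven by the sets, since within them the correlation was 0.0433 and 0.263; it was -0.0466 in KBM7. The members and lists were chosen with earlier results of these data known. Genes named were the 3 with the lowest p per comparison and complex or, for differences, per direction, the catalytic core and alternative forms, and for other lists the gene with the lowest p in each direction; 1 subunit gene and 1 marker are not reported by name here; other called genes, the neighbours and the genes that did not overlap between groups were named after their values were seen. Depth was 23020401 to 43566543 counts per library.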

Additional observations from a re-analysis of the deposited data

Results flagged for a closer look

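In K562, NDUFA4 stood out in siUSP15 replicate 3 at 194 normalized CPM, above 191 in each of the other 3 siUSP15 libraries. NDUFV2 stood out in siCtrl replicate 3 at 3.04, below 3.94 to 4.07 in the other 3. These 2 were among 68 groups of 4 examined, of which chance flags about 1 in 20.

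Responses that differed between the K562 sets by an interaction test, given as the first set minus the second on the log2 scale, were UQCRHL 1.70, NDUFB3 0.30, NDUFB10 0.25, NDUFA12 0.23, NDUFB5 -0.28 and NDUFV2 -1.01. UQCRHL and NDUFV2 are of low level, and DESeq2 gave them no adjusted p. Responses that differed between the lines, given as KBM7 minus K562, included NDUFA4L2 1.26, COX7A2L 0.31, NDUFB5 0.30, SDHD 0.26, UQCRC2 0.25, NDUFS3 0.23, NDUFS4 0.23, NDUFV3 0.21, NDUFB9 -0.20 and UQCR11 -0.24. The causes were not tested.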

How the results depend on the processing

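Counts of genes called were, as reported, 9 in KBM7, 3 in K562, 11 in the first K562 set, 1 in the second, 6 for the difference between sets and 11 for that between lines. They moved by more than 1.5 times as follows. DESeq2 called 2 in KBM7, 3 for the difference between sets and 7 for that between lines. A threshold of 0.01 left 1 in KBM7, 1 in K562, 5 in the first set, 1 between sets and 5 between lines. With no set term K562 had 0. In the second set, no filter on low counts gave 2 and the replicate block 3; the replicate block gave 10, 3, 12, 7 and 12 for the others, and in KBM7 added NDUFS6 (-0.17, adjusted p = 0.0474). Leaving out 1 library gave 1 to 16 in KBM7, 1 to 4 in K562, 3 to 12 in the first set, 1 in the second, 1 to 7 between sets and 7 to 13 between lines. No gene named by the lowest p reversed its direction under any alternative. Other scaling, limma-voom and restriction to genes of at least 5 normalized CPM in each line, chosen after seeing the data, stayed within 1.5 times. The causes were not tested. With 2 libraries per group, genes near 1 normalized CPM are poorly resolved.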
